A study of Homo sapiens with 4 samples.

Results

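The comparison described here is that of β-TrCP knockdown with control in full serum, 1 pair of Affymetrix U133 arrays out of the 4 arrays of the series. LAPC4, a line of human prostate cancer cells that respond to androgen, was infected with lentivirus and kept for 72 hours with 10% fetal calf serum (FCS) and 100 pM of the synthetic androgen methyltrienolone. One array, shRNA FCS, held RNA of cells with an shRNA directed at both β-TrCP isoforms, and the other, control FCS, RNA of cells that the labels describe as infected with GFP. The other pair, shRNA CSS and control CSS, came from cells in 10% charcoal-stripped serum (CSS), which is depleted of androgens. The study's Results speak of an shRNA switched on by doxycycline, with untreated cells as the control, and its Methods of a vector carrying eGFP, so that effects of the shRNA, of doxycycline and of the vector cannot be told apart. Each group was 1 array of 1 infected population. No difference below therefore has a replicate error, a test or a p-value, and each is the value of 1 array minus that of another.

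A probe set was included when its deposited signal, linear in scale, reached 20 on either FCS array, which 13377 of 22277 probe sets did, and lower values were raised to that floor. Of the 13377, 34 were Affymetrix controls, 11792 had 1 gene name, 681 had several and 870 had none, and those with 1 name gave 7888 genes, each read from its brightest included probe set. On both arrays 7467 genes lay above the floor, while 203 were at it on the control array only and 218 on the shRNA array only. At the threshold, 569 included probe sets had a higher signal less than 0.1 above it on the log2 scale, and 599 left out had one less than 0.1 under it.

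β-TrCP1 (BTRC) and β-TrCP2 (FBXW11) are F-box proteins, the subunits with which an SCF ubiquitin ligase (SKP1, CUL1, RBX1 and an F-box protein) takes hold of its substrates. They bind proteins phosphorylated at a short degron, among them β-catenin, the IκB inhibitors of NF-κB, WEE1, CDC25A, EMI1 (FBXO5) and REST, which are then ubiquitinated and destroyed by the proteasome. The regulation acts on proteins, whereas these arrays measured transcripts.

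FBXW11, a target of the shRNA, was the gene with the largest decrease. Its log2 signal was 8.15 on the control array and 5.01 on the shRNA array in FCS, 8.78-fold lower, and a second probe set differed by -1.46 on the log2 scale. In CSS, on arrays that shared none with this pair, its signal was 8.30 without and 4.79 with the shRNA. BTRC, the other target, lay near the floor: its 2 included probe sets gave 4.46 and 4.45 on the control array, and, before the floor was applied, 4.09 and 3.84 on the shRNA array. A further BTRC probe set was under the floor on both. FBXW11 was thus lower with the shRNA in both sera, while the values of BTRC differed in the same direction at a level where only a bound, at least 1.10-fold lower, could be given.

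The other subunits of the ligase showed no such difference. SKP1, the adaptor, had signals of 10.64 and 10.67 on the control and shRNA arrays, and CUL1, the scaffold, 7.58 and 7.77. Of 15 measured genes of SCF subunits and cullin regulators, 9 were higher and 6 lower, none by 1.5-fold (median log2 difference 0.03). Over all 7888 genes the median was 0, with 49.9% higher and 49.9% lower. The counts of higher and lower genes in FCS given for lists below stand against these shares.

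Both arrays of the pair were alike in distribution. Their medians were 4.73 and 4.72, their interquartile ranges 2.69 and 2.74, and the 3′ minus 5′ difference of the ACTB control probe sets, a sign of RNA integrity, 0.45 and 0.41. Over genes above the floor on both, the robust SD of the log2 differences was 0.26. Among the 1000 probe sets nearest in signal it was 0.22 at a mean log2 signal of 5, 0.30 at 7 and at 9, and 0.18 at 11, values that describe how far probe sets differed between 2 arrays, whatever the reason, and that are no replicate error. The array shRNA CSS stood apart from the other 3 in distribution, with an interquartile range of 2.07. The array control CSS had the largest ACTB difference, 1.03, against 0.44 on shRNA CSS. Values from CSS are given with both limits.

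At least 2-fold higher with the shRNA were 70 genes (0.887% of those measured), 5 of them at the floor on the control array, and at least 2-fold lower were 30 genes (0.380%), 1 of them at the floor on the shRNA array. By 4-fold, 9 genes were higher and 2 lower. With the looser threshold of 1.5-fold, added after the values were seen, 286 genes (3.63%) were higher and 269 (3.41%) lower, numbers closer to each other than those at 2-fold. Of the 29 genes 2-fold higher that had at least 2 included probe sets, 27 were higher in all of them. Of the 10 such genes 2-fold lower, all 10 were lower in all of them. All probe sets passed 2-fold for ANXA2, BCL6, NREP, PMAIP1, PSPH, SEMA3C, TPD52L1, VAV3 and VCAN in the upward direction, and for DNAJC10, FBXW11, KLK2, SERHL2, SLC33A1 and TMEM80 in the downward one.

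**Figure D1:**
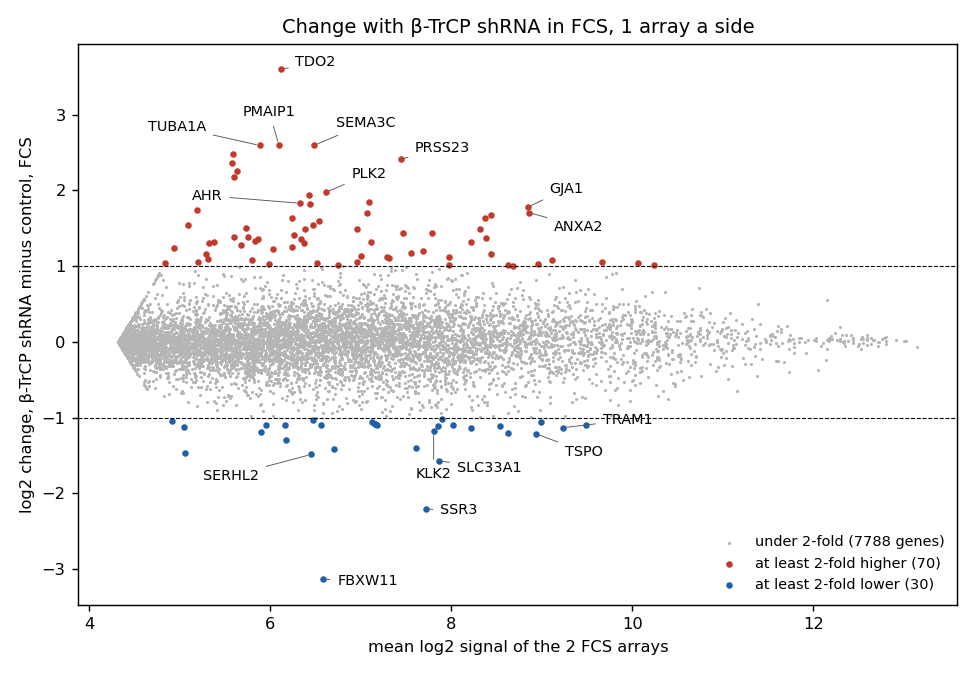
Log2 difference (β-TrCP shRNA minus control in FCS, y axis) against the mean log2 signal of both arrays (x axis) for 7888 genes, 1 point a gene, with dashed lines at 2-fold. The 70 genes above the upper line reach further than the 30 below the lower one, FBXW11 and SSR3 excepted.

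Some genes of secreted and cell surface proteins were among those with the largest increases. SEMA3C, a secreted semaphorin, went from 5.19 on the control array to 7.79 on the shRNA array, 6.04-fold higher, with its other probe set, under the floor on the control array, higher by at least 1.11 on the log2 scale. PRSS23, a secreted serine protease, had signals of 6.24 and 8.65. NMU, the neuropeptide neuromedin U, had signals of 7.07 and 8.51. Receptors at least 2-fold higher included ROBO1, the receptor of SLIT guidance proteins, at 7.60 and 9.28, and ROR1, a receptor of the Wnt pathway, at 6.22 and 7.71. TSPAN5, a tetraspanin, was 3.26-fold higher and CEMIP2, a cell surface hyaluronidase, 3.83-fold higher. SEMA3C alone of 16 measured semaphorin, neuropilin and plexin genes and TSPAN5 alone of 16 measured tetraspanins were 2-fold higher, and the medians of these lists were 0.05 and 0.03.

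Genes of membrane-binding partners at the inner face of the plasma membrane were higher together. ANXA2, a calcium-dependent membrane-binding protein, had a signal of 9.71 on the shRNA array, 3.27-fold above the control array, and its 3 probe sets differed by 1.71 to 1.88. S100A10, the light chain that forms a tetramer with ANXA2, had signals of 7.56 and 9.19, and ANXA1, a related annexin, of 5.53 and 7.35. The pseudogene ANXA2P2, 2.80-fold higher, shares most of its sequence with ANXA2, so that the signals of both may come from the same transcripts. These 3 protein-coding genes were the ones past 2-fold among 11 measured annexin and S100 genes (0.887% of all genes were). Of the 11, 9 were higher (81.8%, against 49.9% of all genes; median 0.09). In CSS the 3 were higher as well, by 1.54 for ANXA2, 1.33 for S100A10 and 1.79 for ANXA1.

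Of the junction and cytoskeleton genes, GJA1 (connexin 43, a gap junction channel) had signals of 7.96 and 9.74. PALLD, an actin-binding scaffold, had 7.09 and 8.29, its 3 probe sets ranging from 0.39 to 1.20. TUBA1A, an α-tubulin, had a signal of 4.59 on the control array, near the floor, and of 7.18 on the shRNA array. Of 16 measured tubulin genes and their cofactors, it alone was past 2-fold upward, with a median of 0.10 for the list, and TUBA4A, another α-tubulin, differed by -0.63. VCAN, a matrix proteoglycan, went from 4.40 to 6.76, and all of its 4 probe sets were higher by at least 1.11.

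**Figure D2:**
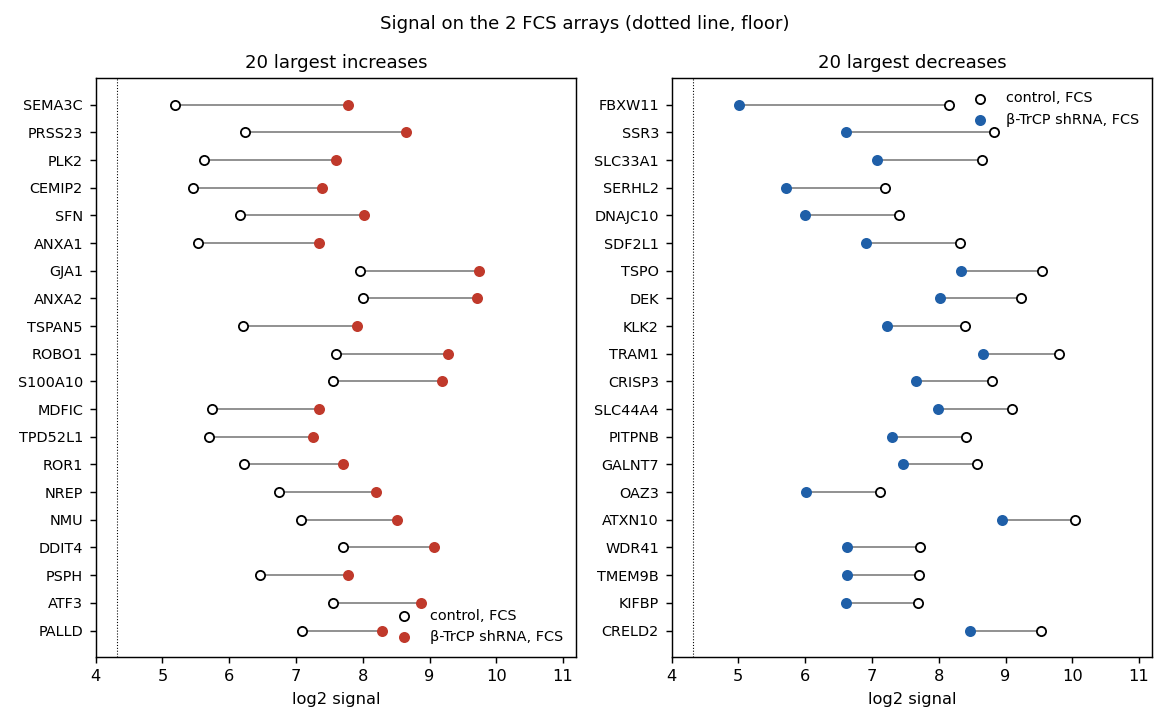
Log2 signal (x axis) of the 20 genes with the largest increases (left) and the 20 with the largest decreases (right) among genes that neither array had at the floor, whose mean signal was no lower than the median gene's and whose probe sets all differed in 1 direction. Open circles are the control array and filled circles the shRNA array in FCS, and FBXW11 and SSR3 have the longest lines on the right.

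For several genes the probe set that was read lay above the floor on the shRNA array only. TDO2, tryptophan dioxygenase, was at the floor on the control array and at 7.92 on the shRNA array, at least 12.1-fold higher. SH3BP5, GAD1 (glutamate decarboxylase), BDNF (a neurotrophin) and LIN7A had bounds of at least 3.34-fold, 2.90-fold, 2.36-fold and 2.05-fold higher. SH3BP5 had another probe set above the floor on both arrays, which differed by only 0.38 (4.76 and 5.13). In the other direction, CYP4F8, a cytochrome P450, was at least 2.77-fold lower, and the bounds of LOC100996756, ZNF518A, PRSS16 and ANKRD36B were at most 1.54-fold.

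The decreases were led, after FBXW11, by genes of the endoplasmic reticulum (ER), the entry to the secretory pathway. A secretory protein is brought to the ER by the signal recognition particle, passes the SEC61 channel with the help of the TRAP complex and TRAM1, and is glycosylated and folded by lumenal chaperones before COPII vesicles carry it off. SSR3, the γ subunit of TRAP, had a signal of 8.82 on the control array and 6.61 on the shRNA array, 4.62-fold lower, from 1 probe set. DNAJC10, a disulfide reductase of the ER, had signals of 7.41 and 6.00, with both probe sets at -1.41 and -1.42. SDF2L1, a lumenal partner of the chaperone HSPA5, had signals of 8.32 and 6.91.

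The membrane side of the process followed the same direction. TRAM1 had signals of 9.80 and 8.67, and its 3 probe sets differed by -1.69 to -0.99. The other TRAP subunits, SSR1, SSR2 and SSR4, differed by -0.51, -0.45 and -0.21. SEC61A1, the channel, had signals of 9.23 and 8.58, and SRPRB, a subunit of the receptor for the signal recognition particle, 9.18 and 8.45. STT3A, a catalytic subunit of oligosaccharyltransferase, had 10.13 and 9.36, while its partners RPN1 and DDOST differed by only -0.03 and -0.09.

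A list of ER translocation, folding and glycosylation genes was drawn up after these values had been seen, and so describes them without lending them support. Of 56 measured genes, 52 were lower and 4 higher, against 49.9% of all genes in either direction, with a median of -0.41. By 1.5-fold 17 were lower, or 30.4% (3.41% of all genes), and by 2-fold 6: SSR3, DNAJC10, SDF2L1, TRAM1, CRELD2 and FKBP11. FKBP14 (0.41) and ERP29 (0.29) were the highest. A second list, of COPII coat and ER export genes, was made in the same way. It had 21 of 26 lower, with a median of -0.38, and 6 lower by 1.5-fold (23.1%, against 3.41% of all genes). SEC13, a subunit of the outer COPII coat, had signals of 9.37 and 8.38, and PREB, the exchange factor that starts the coat, 8.09 and 7.26, whereas the paralogs SEC23A and SEC23B differed by 0.18 and -0.76.

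Many ER chaperone genes carry an ER stress response element, the site at which ATF6 and XBP1 act with NF-Y in the unfolded-protein response. It was searched for on both strands as CCAAT and CCACG with 9 bases between them, in RefSeq promoters of GRCh38.p14 (250 bases before to 50 after a start). Of the 56 ER genes 48 had a promoter in the table, and 7 of these held it (14.6%), as did 12 of 6515 measured genes (0.184%) and 27 of 35116 promoters (0.0769%). The 100 bases before the start of 4 of the 7, shown to set the element beside the differences, are given 5′ to 3′ on the strand of the gene, with the element's ends in capitals. CRELD2 lies on the plus strand (chr22:49918534-49918633) and differed by -1.06, PDIA6 on the minus strand (chr2:10812786-10812885) by -0.78, HSPA5 on the minus strand (chr9:125241344-125241443) by -0.49, and HSP90B1 on the plus strand (chr12:103930310-103930409) by -0.10.
CRELD2: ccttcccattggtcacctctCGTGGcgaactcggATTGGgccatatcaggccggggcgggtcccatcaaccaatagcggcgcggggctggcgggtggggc
PDIA6: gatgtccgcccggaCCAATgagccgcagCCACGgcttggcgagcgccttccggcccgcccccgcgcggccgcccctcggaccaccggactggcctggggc
HSPA5: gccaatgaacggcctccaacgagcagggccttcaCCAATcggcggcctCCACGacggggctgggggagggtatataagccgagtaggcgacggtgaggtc
HSP90B1: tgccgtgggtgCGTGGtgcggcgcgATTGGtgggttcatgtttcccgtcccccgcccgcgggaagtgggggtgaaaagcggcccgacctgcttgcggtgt

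In CRELD2 and HSP90B1 the element reads on the other strand. The 7 genes with the element had a median difference of -0.40 and the 41 without it of -0.41, so that holding these letters did not go with a lower value within the list. A match in letters is a description of the sequence and no evidence of binding.

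The 28 measured genes of the wider ATF4 and unfolded-protein response list split, with 13 higher and 15 lower (median -0.02), some of them also in the ER list. On the higher side were genes that ATF4 induces under amino acid shortage and other stress. ATF3, a stress-induced transcription factor, had signals of 7.56 and 8.87, and DDIT4, an inhibitor of mTORC1, 7.70 and 9.07. PSPH, the last enzyme of serine synthesis, had 6.45 and 7.78, and CHAC1, which degrades glutathione, 5.66 and 7.02. ATF4 itself differed by -0.02, and its other targets ASNS and TRIB3 by -0.14 and -0.65. On the lower side, beside SDF2L1, were DNAJB9 (-0.98), HSPA5 (-0.49) and XBP1 (-0.38).

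**Figure D3:**
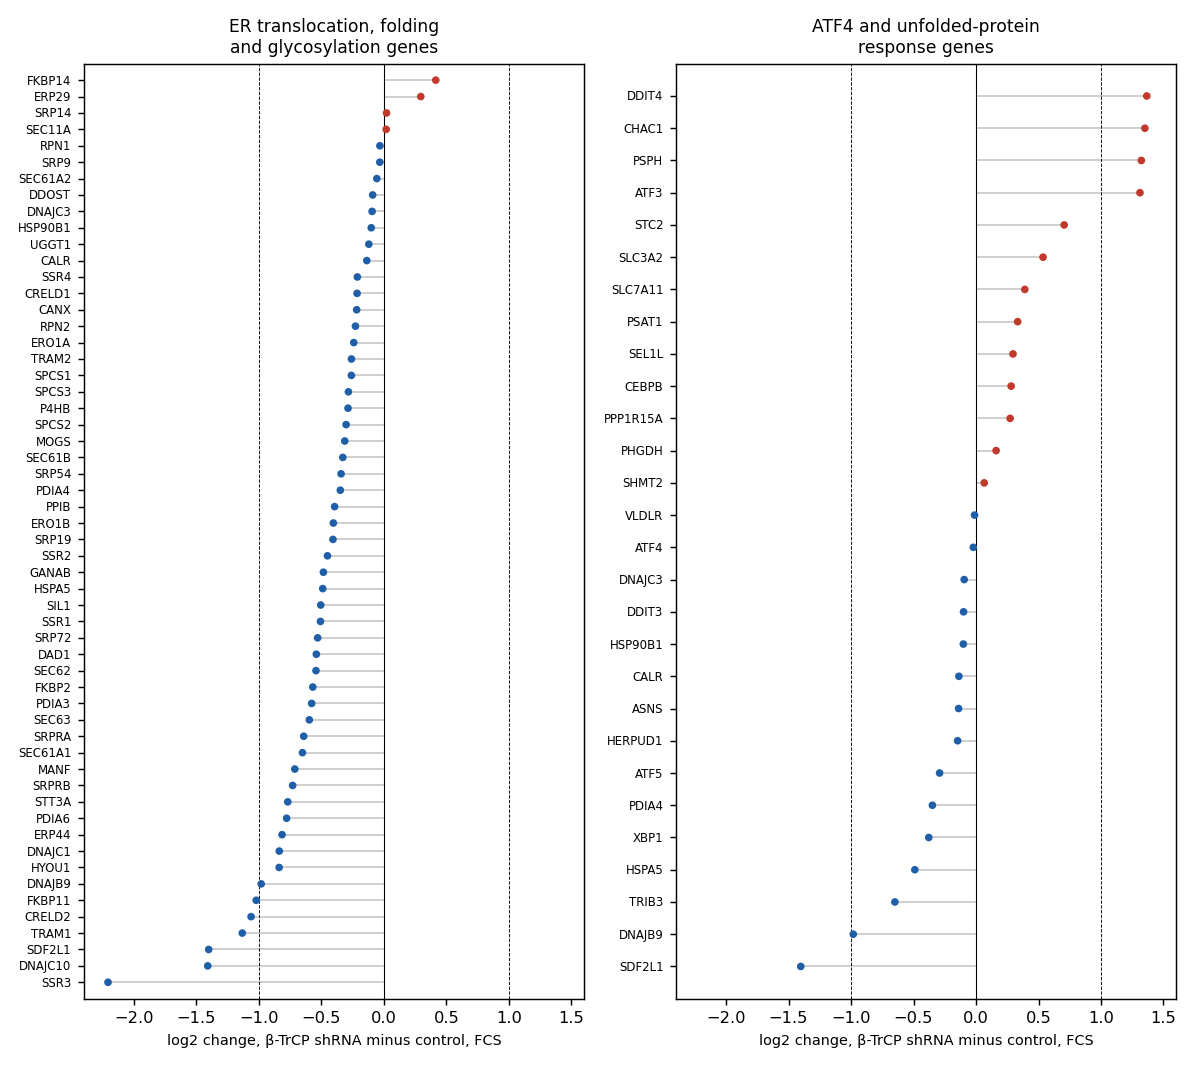
Log2 difference in FCS (x axis) of each of 56 measured ER translocation, folding and glycosylation genes (left) and 28 ATF4 and unfolded-protein response genes (right), sorted, with dashed lines at 2-fold. On the left 52 points lie under 0, while on the right 13 lie above 0, and DDIT4, CHAC1, PSPH and ATF3 form a group past 2-fold.

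Decreases past 2-fold outside the ER lists included genes of membrane transport, lipids and secretion. SLC33A1, which carries acetyl-CoA into the ER lumen, had signals of 8.65 and 7.08, with both probe sets lower by at least 1.29. GALNT7, an enzyme of mucin-type O-glycosylation in the Golgi, had 8.57 and 7.47, and PITPNB, a phosphatidylinositol transfer protein, 8.41 and 7.30. SLC44A4, a transporter of the choline family, had 9.10 and 7.98, and CRISP3, a secreted protein of the prostate, 8.79 and 7.66. TSPO, of the outer mitochondrial membrane, had 9.54 and 8.33. DEK, a chromatin protein, had 9.22 and 8.03, and ATXN10 10.04 and 8.95. Of SERHL2 both probe sets were lower, by 1.49 and 1.80 in log2 size.

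Genes of mitosis were the list with the most uniform increase. All 47 genes of the list were measured, and 45 were higher, with a median of 0.67, while CDKN3 (-0.21) and TOP2A (-0.02) were lower. By 1.5-fold 27 were higher, 57.4% of the list against 3.63% of all genes, but only TPX2 and KIF20A passed 2-fold. TPX2, which activates Aurora A on the spindle, had signals of 8.45 and 9.48, and KIF20A, a kinesin of cytokinesis, 7.48 and 8.48. Cyclins and the kinase they act with went the same way: CCNB1 had signals of 9.36 and 10.28, CCNA2 6.87 and 7.80, and CDK1 9.61 and 10.10. The checkpoint kinase BUB1 had 6.98 and 7.93, and PLK1, a kinase of mitotic entry and a kinase that marks β-TrCP substrates, 7.63 and 8.46. In RNA of a whole culture, more cells in mitosis and more transcript per cell cannot be told apart.

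Genes of S phase and DNA replication, whose products are made earlier in the cycle, were higher in 28 of 44 with a median of 0.10. None passed 2-fold, and 6 were higher by 1.5-fold (13.6%, against 3.63% of all genes). Among these 6 were RPA2 (0.75), ORC6 (0.73), ORC1 (0.72) and RFC3 (0.67). The median of the mitosis list lay 0.67 above that of all genes, and that of the S-phase list 0.10. Of the CDK inhibitors, G1 cyclins and their partners, 14 of 19 were higher with a median of 0.09, none past 2-fold.

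Promoters of late cell cycle genes often hold a cell cycle genes homology region, the letters TTTGAA, at which the MuvB complex binds with B-MYB and FOXM1. This motif of 6 letters, searched on both strands, occurred in 28 of the 40 mitosis genes with a RefSeq promoter (70%), in 2 of 38 S-phase genes (5.26%), in 883 of 6515 measured genes (13.6%) and in 5324 of 35116 promoters (15.2%). The 100 bases before the start of 4 of the 28 are given to show where the motif lies. It is in capitals, and each stretch reads 5′ to 3′ on the strand of the gene. KIF18A (0.87) also held the motif in this stretch and is not printed. CCNF lies on the plus strand (chr16:2429347-2429446), PLK1 on the plus strand (chr16:23678789-23678888), KIF23 on the plus strand (chr15:69414249-69414348) and CDC25C on the minus strand (chr5:138331805-138331904). Their log2 differences were 0.88, 0.83, 0.79 and 0.73.
CCNF: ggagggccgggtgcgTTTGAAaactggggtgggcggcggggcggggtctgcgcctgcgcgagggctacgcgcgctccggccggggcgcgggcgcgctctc
PLK1: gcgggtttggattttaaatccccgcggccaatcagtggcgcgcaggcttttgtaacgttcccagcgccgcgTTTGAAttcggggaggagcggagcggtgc
KIF23: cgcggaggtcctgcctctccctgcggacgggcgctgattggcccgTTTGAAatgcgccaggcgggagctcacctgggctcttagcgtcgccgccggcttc
CDC25C: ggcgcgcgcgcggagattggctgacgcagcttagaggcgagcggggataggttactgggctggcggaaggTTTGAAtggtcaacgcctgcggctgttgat

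Within the list the motif did not sort the genes by size of difference: the 28 with it had a median of 0.64 and the 12 without it of 0.71. CDKN3 and TOP2A, the lower members, both held it. The letters were thus common to the list and not to its larger differences.

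Transcripts of β-TrCP substrates, whose proteins the ligase removes, were more often higher than lower, by less than 2-fold. Of 30 measured, 23 were higher (76.7%, against 49.9% of all genes) and 7 lower, with a median of 0.14, and 4 were higher by 1.5-fold (13.3%, against 3.63%). These 4 were WWTR1 (TAZ, a Hippo pathway coactivator; 6.32 and 7.23), TWIST1 (4.71 and 5.49, near the floor), CDC25C (6.82 and 7.55) and WEE1 (8.88 and 9.60), of which CDC25C also belongs to the mitosis list. The 3 probe sets of WWTR1 ranged from 0.33 to 0.91. CTNNB1 (β-catenin) had signals of 9.65 and 9.87, REST 5.33 and 5.32, FBXO5 6.24 and 6.44, and NFKBIA (IκBα) 9.32 and 8.99. MCL1, with -0.54, was the lowest, and its 3 probe sets disagreed in direction.

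Genes that β-catenin activates through TCF factors were higher in 10 of 11 measured (90.9%, against 49.9% of all genes), with a median of 0.45. By 1.5-fold 3 were higher (27.3%, against 3.63% of all genes), and by 2-fold 2, LEF1 and SOX4 (0.887% of all genes were). LEF1, itself a TCF family factor, had signals of 7.58 and 9.06, but 1 of its 3 probe sets differed by -0.03. SOX4, a transcription factor, had 9.14 and 10.19, and its 4 probe sets were higher by 0.90 to 1.41. TCF7L2 differed by 0.81 with 6 probe sets between 0.08 and 0.81, MYC by 0.47 and CCND1 (cyclin D1) by 0.35. ID2, at -0.11, was the lower one. Of the 29 genes listed, 9 were under the floor on both arrays.

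NF-κB target genes, which rely on destruction of IκB by the ligase, gave no common direction. Of 14 measured, 5 were higher and 9 lower (median -0.10), against 49.9% of all genes in either direction. IER3, an early response gene, had signals of 8.14 and 7.37, the only member past 1.5-fold, and SDC4, a syndecan, 8.85 and 8.31. Of the 31 genes listed, 14 were under the floor. With the stricter signal minimum of 100 the median was -0.33. Of 17 measured interferon-stimulated genes, a check for a response to double-stranded RNA, 11 were higher (64.7%, against 49.9% of all genes) and 6 lower. Their median was 0.11, with ISG15 at 6.71 and 7.35 and ISG20 at 7.01 and 6.01. With the minimum of 100 the median turned to -0.18.

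AHR, the aryl hydrocarbon receptor, a ligand-activated transcription factor, had signals of 5.42 and 7.25, 3.55-fold higher. CYP1A1, its classic target, had 5.56 and 6.97, while the 4 probe sets of CYP1B1, another target, were under the floor on both arrays. Of 7 measured AhR targets 5 were higher (median 0.16). TIPARP, which feeds back on the receptor, differed by 0.39, and NQO1, a quinone reductase also under NRF2, by -0.63, so that CYP1A1 was the only target past 2-fold. AHR and CYP1A1 were each read from 1 probe set.

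Androgen-induced genes were lower in 26 of 32 measured although androgen was present, with a median of -0.31, while 49.9% of all genes were lower. By 1.5-fold 7 were lower (21.9%, against 3.41% of all genes) and 2 higher (6.25%, against 3.63%). KLK2, a kallikrein of the prostate, had signals of 8.39 and 7.22, and its 3 probe sets all differed by between -1.18 and -1.17. KLK3 (PSA), its paralog, had 9.10 and 8.16, and since probe sets of kallikreins can take up each other's transcripts, both values are open to that. AZGP1, a secreted glycoprotein, had 7.65 and 6.59, and NNMT 5.44 and 4.39, near the floor. FKBP5, a chaperone induced by androgen, differed by -0.80 and TMPRSS2 by -0.53. Not all members followed, as ZBTB10 and HOMER2 differed by 0.69 and 0.67. In control cells, KLK2 and KLK3 were not lower in androgen-depleted serum, with signals of 9.07 and 9.76 on control CSS. NNMT was also higher there than on control FCS, at 5.81, while AZGP1 (6.90) and TMPRSS2 (7.86, against 8.31) were lower. Of 10 measured androgen-repressed genes 8 were higher (median 0.34), and 4 by 1.5-fold (40%, against 3.63% of all genes). They were led by DPYSL2 (6.44 and 7.58) and IGFBP3 (4.67 and 5.73, near the floor). The median of this short list moved with the filter, to 0.20 with a signal of at least 20 demanded on both arrays and to 1.13 with one of at least 100 on either.

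The list of sterol and fatty acid genes had 22 measured members, of which 17 were higher (77.3%, against 49.9% of all genes; median 0.36). None was higher by 2-fold and 7 were by 1.5-fold (31.8%, against 3.63% of all genes). The 3 genes with the largest increases were enzymes of the cholesterol pathway. HMGCS1, which makes its first committed intermediate, had signals of 7.72 and 8.63, SQLE, the squalene epoxidase, 7.68 and 8.56, and NSDHL 6.70 and 7.59. The 3 probe sets of SQLE ranged from 0.29 to 1.12. The fatty acid enzymes FASN and ACACA lay at the other end with -0.26 and -0.31, and the other lower members were SREBF1, a regulator of lipid synthesis (-0.19), and the cholesterol pathway enzymes PMVK (-0.14) and LSS (-0.0037).

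Of 16 measured p53 target genes, 9 were higher and 7 lower (median 0.15), against 49.9% of all genes in either direction. Far above the rest were 3, past 2-fold (0.887% of all genes were). PMAIP1 (NOXA, a pro-apoptotic BH3-only protein) had signals of 4.80 and 7.40, and its second probe set, under the floor on the control array, was higher by at least 1.58. PLK2, a polo-like kinase, had 5.63 and 7.60, and SFN (14-3-3σ) 6.16 and 8.01, its 3 probe sets ranging from 0.37 to 2.11. The target most often used as a readout, CDKN1A (p21), had 5.57 and 5.77, and DDB2 5.96 and 5.47. The median of the list depended on which genes were measured, and was 0.48 with a signal of at least 100 and 0.71 over genes with at least 2 probe sets.

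Genes of large housekeeping complexes differed little. The 40 measured cytosolic ribosomal protein genes lay between -0.24 and 0.21 (median 0.03), 47 nuclear genes of the respiratory chain between -0.27 and 0.50 (median 0.07), and 30 proteasome subunit genes between -0.38 and 0.50 (median 0.11). None of these passed 1.5-fold. Of 20 measured hypoxia and glycolysis genes 17 were higher (85%, against 49.9% of all genes; median 0.15). ALDOC, an aldolase, was the only one past 2-fold, with signals of 6.24 and 7.25.

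Markers of luminal prostate cells were measured on both arrays. Keratins KRT8 (9.25 and 9.30) and KRT18 (11.35 and 11.25), EPCAM (9.75 and 10.05) and HOXB13 (8.61 and 8.81) were well above the floor and differed by less than 0.30 in log2 size, whereas the keratin KRT19 had signals of 10.29 and 9.66. Of 14 luminal genes 9 were measured, of which 3 were higher and 6 lower (median -0.10). Those lower by 1.5-fold were KRT19 and the androgen-induced KLK2 and KLK3, 33.3% of the list against 3.41% of all genes. Of other cell types, 4 of 16 basal, 2 of 11 neuroendocrine, 4 of 11 fibroblast, 1 of 12 leukocyte and 0 of 10 endothelial markers were above the floor on either array. The fibroblast markers differed by -0.13 to -0.01, and the leukocyte marker CD79A by -0.01. Of the basal markers, DST was 2.83-fold higher, its 4 log2 differences ranging from 0.06 to 1.65, and KRT15 by -0.64.

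The pair of arrays in CSS shared no array with the pair in FCS and so gave separate values for the same shRNA, in another serum. Of the 70 genes at least 2-fold higher in FCS, 45 were higher in CSS (64.3%), where 26.9% of 7771 genes were higher, and 12 were so by 2-fold. Of the 30 lower, 28 were lower in CSS (93.3%), where 73.1% of genes were lower, and 21 by 2-fold. With the deposited values the median of all genes in CSS was -0.34, on the shRNA array that stood apart. After quantile normalization of all 4 arrays, which brought this median to -0.03, the counts were 51 of 66 higher (77.3%, against 47.7% of all genes) and 30 of 33 lower (90.9%, against 52.1%). Across 7771 genes, which are not independent replicates, the Pearson correlation of the 2 differences was 0.22.

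**Figure D4:**
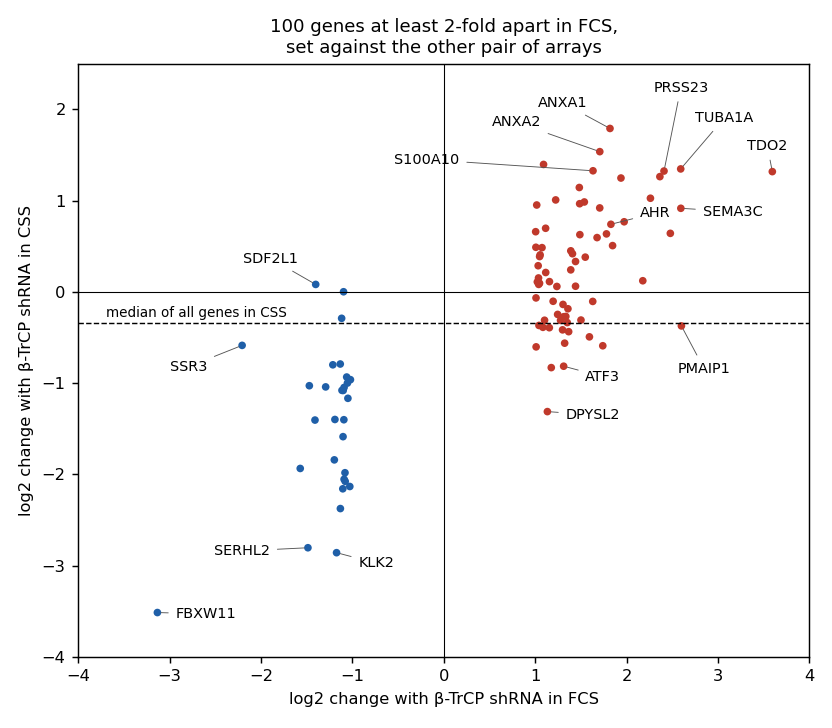
Log2 difference in CSS (y axis) against that in FCS (x axis) for the 100 genes at least 2-fold apart in FCS, in deposited values, with a dashed line at the median of all genes in CSS. Of the 30 genes on the left 28 lie under 0, and of the 70 on the right 45 lie above it.

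The lists differed in how far they were shared. FBXW11 (-3.52 in CSS), KLK2 (-2.86), SERHL2 (-2.80), CRISP3 (-2.38) and SLC33A1 (-1.94) were lower in both sera, and in deposited values each by more in CSS. After quantile normalization of the 4 arrays their values in CSS were -3.34, -2.41, -2.61, -1.90 and -1.45. SSR3, the second largest decrease in FCS, differed by -0.59 in CSS, where its signals were 8.76 and 8.18, and SDF2L1 by 0.08. The ER list had a median of -0.35 in CSS, near the -0.34 of all genes, with 50 of 56 genes lower, where 73.1% of all genes were lower. After quantile normalization its median was -0.19, with 41 of 56 genes lower, where 52.1% of all genes were lower. The mitosis list had a median of -0.02 in deposited values, with 22 of 47 genes higher (26.9% of all genes were). After quantile normalization its median was 0.41, with 34 of 47 genes higher (47.7% of all genes were). The 4 ATF4 targets past 2-fold in FCS were lower in CSS, by 0.34 to 0.82 in log2 size, and after quantile normalization between -0.40 and 0.21. PMAIP1, 6.07-fold higher in FCS, had signals of 5.52 and 5.14 in CSS. None of these differences between the sera could be tested with 1 array a group.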

How the data were processed

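Gene expression in LAPC4 cells was measured on 4 Affymetrix U133 arrays, 1 a group, with groups taken from the sample labels. The deposited values are log2 signals of 22277 probe sets. The authors name MAS5 signals, present calls and a minimum signal of 20 as filters, and quantile normalization, and the labels name MAS5 without a version. The deposited table holds every probe set, and its lowest value was 3.17 to 3.23 on each array, so whether it holds MAS5 signals unchanged is not settled. The labels give 6 µg of RNA and the study's methods another amount.

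The deposited values were used as they stand: probe sets under a linear signal of 20 on both FCS arrays were left out, lower values were raised to this floor, and the difference shRNA minus control was taken. Genes were named through the platform annotation, with symbols updated through a RefSeq gene table. A gene was read from its brightest probe set, so values are not comparable between genes. Precision is limited by the number of arrays, and 1 array a group allows no test.

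Named were FBXW11, BTRC, AHR, CYP1A1, CYP1B1, CTNNB1, NFKBIA, KLK2 and KLK3; the 20 largest increases and decreases among genes that neither array had at the floor, of mean signal no lower than the median gene's (6.39) and with all probe sets in 1 direction; the 5 largest bounds each way; and up to 4 genes of each of 39 lists. Others were named after their values were seen, as members of a list, as genes past 2-fold, or as subunits of a complex described. The genes and lists were chosen with earlier results of these data known, and 2 lists, of the ER and of COPII, after the values were seen. Lists not described in the text had medians between -0.02 and 0.20 and at most 1 gene past 2-fold. Alternatives were other scalings, floors, filters and the mean over probe sets. The steps were tested on simulated data. Python 3.11.15, numpy 2.4.6, pandas 2.3.3 and matplotlib 3.10.9 were used.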

Additional observations from a re-analysis of the deposited data

Results flagged for a closer look

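Of the named genes, 5 were past 2-fold higher with the shRNA in FCS and lower by 1.5-fold or more in CSS, each on 1 array a side, and the difference between the sera was not tested. ATF3 differed by 1.31 in FCS and by -0.82 in CSS, and DPYSL2 by 1.13 and by -1.31. ALDOC differed by 1.01 and by -0.60, and SLC30A1, a zinc exporter, by 1.18 and by -0.83. SH3BP5 differed by bounds of 1.74 and of -0.59, in 1 of its 2 probe sets. Its other probe set was not lower in CSS, with control and shRNA signals of 4.76 and 5.13 in FCS and 4.88 and 5.00 in CSS. All genes had a median of -0.34 in CSS, and after quantile normalization of the 4 arrays the CSS values were -0.40 for ATF3, -0.54 for SH3BP5, -0.86 for DPYSL2, -0.05 for ALDOC and -0.30 for SLC30A1.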

How the results depend on the processing

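Scaling of the FCS pair, no floor, no filter, and the mean over probe sets kept the number of genes at least 2-fold higher or lower within 1.5 times of the 70 and 30 reported. A floor of 100 gave 30 higher and 19 lower, a threshold of 1.5-fold 286 and 269, and a demand that 2 or more probe sets of a gene all pass 9 and 6; the last 2 settings were chosen after seeing the data. Of 177 values of named genes under 1318 alternatives, 1270 moved by less than the local spread, 48 by more, and 0 of those past 2-fold changed sign. Of 40 list medians under 350 alternatives, 321 moved by less than 0.1, 26 by more, and 3 of at least 0.1 in size changed sign. Over genes with at least 2 probe sets, a setting chosen after seeing the data that leaves fewer genes, the median was 0.46 for sterol genes, 0.18 for the ATF4 list, -0.72 for AhR targets and -0.10 for epithelial junction genes. In this setting it was also 0.71 for p53 targets, 0.60 for androgen-repressed genes, 1.02 for basal and -0.93 for luminal markers. With a signal of at least 100 it was -0.18 for interferon-stimulated genes, -0.33 for NF-κB targets, 0.29 for AhR targets, 0.48 for p53 targets, 1.13 for androgen-repressed genes, -0.31 for luminal markers and -0.43 for TGF-β and SMAD target genes, the last -0.02 otherwise. Apart from what these settings leave out, the cause was not tested. The number of genes past 2-fold in FCS that went the same way in CSS was 73, and stayed within 1.5 times of it. Genes at the floor on 1 array, BTRC among them, have only bounds. No paired analysis was possible because the comparison in FCS has 1 array a group. A fit over both sera with serum as a block, which gives the mean of both differences, was not run.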

Other observations

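Several genes with increases past 2-fold belong to no list described above. BCL6, a transcriptional repressor, had signals of 8.57 and 9.65 on the control and shRNA arrays in FCS, and both probe sets were higher by at least 1.07. VAV3, a guanine nucleotide exchange factor, had 8.18 and 9.19, and CD47, an inhibitory ligand of phagocytes, 9.73 and 10.75, in CSS 9.56 and 10.51. NR3C1, the glucocorticoid receptor, had 5.17 and 6.51, and a second probe set was higher by 1.32, while the other 2 were under the floor on the control array. FLRT2 and FLRT3, related receptors of cell adhesion and guidance, had 5.43 and 7.06, and 5.18 and 6.54. In CSS they differed by -0.11 and -0.19. A second FLRT2 probe set, under the floor on the control array in FCS, was higher there by at least 0.75. In CSS this second probe set was higher too, at 4.34, near the floor, and 5.01. MAN1A1, a Golgi mannosidase, had 4.51, near the floor, and 6.68, and its second probe set was higher by at least 0.19, from under the floor. HSPB1, a small heat shock protein, had 9.54 and 10.58. In CSS, BCL6 differed by 0.48, VAV3 by 0.66, NR3C1 by -0.27, MAN1A1 by 0.12 and HSPB1 by 0.08, in deposited values. All genes of this paragraph were chosen after their values were seen.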
